A study of Mus musculus with 4 samples.

Results

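The genes described here encode the partners of Scl, a transcription factor of early blood, together with the core-binding factor Runx1 and Cbfb. The members were 9 mouse genes chosen by name (Tal1, Lmo2, Gata2, Lyl1, Ldb1, Tcf3, Cbfa2t3, Runx1 and Cbfb), out of 8251 genes with a probe set of their own. All probe sets with a member as their only gene symbol were taken, which gave 14 probe sets: 1 each for Tal1, Ldb1, Tcf3 and Runx1, and 2 each for the other 5 genes. The rule reads no intensity, but the members were chosen with earlier results of these data known.

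RNA was measured on single-colour arrays in 2 Hemangioblast samples and 2 hCD4 samples, all from mouse ES cells of the line labelled Scl+/hCD4, so that every array carries the same alteration: human CD4 stands at an Scl allele as a reporter. Per the study text, these cells were differentiated with serum for 2.75 days into embryoid bodies, Flk-1+Scl+ cells were sorted by antibodies against Flk-1 and human CD4, and embryoid body cells were replated for blast colonies, which were picked and pooled. The sample sources call the Hemangioblast arrays differentiated cultured hemangioblasts and the hCD4 arrays cultured ES cells, while the study text calls its populations hCD4 and Blast, so the groups are called here by their titles. On the hCD4 arrays labelled by source as ES cells, the early mesoderm genes Kdr (1625 and 2003) and Etv2 (443 and 422) and the embryonic globin gene Hbb-bh1 (1323 and 1321) lay above the array median, as did the pluripotency gene Pou5f1 (1526 and 585). Some genes of these lists were not clearly above it, among them the mesoderm genes Mesp1 (222 and 110) and Pdgfra (155 and 134) and the pluripotency genes Nanog (160 and 173) and Zfp42 (79.5 and 58.2). Nanog is given here by 1 of its 2 probe sets. The other had a mean of 186 over the 4 arrays and a log2 change, Hemangioblast minus hCD4, of -1.49 (adjusted p = 0.137 in limma). The level of Nanog on the hCD4 arrays thus depends on the probe set. The labels do not state whether replicates were grown as separate cultures, and the p-values reflect array-to-array spread that may be technical.

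Scl, encoded by Tal1, is a basic helix-loop-helix protein that pairs with an E protein such as the product of Tcf3 and binds the short DNA motif called the E-box. Lmo2 and Ldb1 bridge this pair to a GATA factor, Gata2 in progenitors and Gata1 in red cell and platelet lineages, and Cbfa2t3 brings corepressors to the complex. Lyl1 is the closest relative of Scl, and Runx1 with its partner Cbfb is needed for the formation of definitive blood. In mouse embryos the loss of Tal1 or Lmo2 abolishes blood formation.

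Gata2 fell in Hemangioblast samples and was the only member past the threshold, an adjusted p of 0.05 in limma over all 12422 probe sets. Tal1 and both probe sets of Lmo2 lay lower on the Hemangioblast arrays than on the hCD4 arrays, and both probe sets of Lyl1 lay higher, with no overlap between groups but with adjusted p above 0.05. For Ldb1, Tcf3, Cbfa2t3 and Runx1 the arrays of the groups overlapped. In all, 1 of 14 member probe sets (7.14%) passed, against 4.48% of all probe sets. It was lower, as were 1.56% of all probe sets, and 0 members were higher, against 2.91%. The groups did not overlap for 7 of 14 (50.0%), against 44.4% of all probe sets, and both shares are near the background. Of these, 5 were lower on both Hemangioblast arrays, against 19.7% of all probe sets, and 2 were higher, against 24.8%. A difference of at least 2-fold in all 4 pairs of arrays was seen for 0 of 14, against 2.89% of all probe sets. An unadjusted p under 0.05 was found for 6 of 14 (42.9%), against 16.3% of all probe sets. These were Tal1, the brighter probe set of Gata2 and both probe sets of Lmo2 and of Lyl1. Probe sets of a gene are not independent, so a gene can count more than once here and in the counts above. The median absolute log2 change was 0.46 over the member probe sets and 0.25 over all probe sets.

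The intensities given here are the authors' values scaled to a common trimmed mean. Changes are Hemangioblast minus hCD4 on the scale of log2 of the scaled intensity plus 16, with their standard error (SE), 95% confidence interval and p-value from limma adjusted by Benjamini-Hochberg. The added 16 makes changes of dim probe sets smaller. Each probe set responds differently to its RNA, so levels of different probe sets do not give relative RNA amounts. Where levels are named beside each other or summed, they only describe the intensities.

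The RefSeq start regions of Tal1, Gata2 and Lyl1 are shown because these 3 genes had the largest changes by their brightest probe sets and did not all run the same way. Each window of build GRCm38.p6 reaches from 250 bases before to 50 bases after an annotated start, on the plus strand, 5′ to 3′. Capitals mark the GATA core (GATA, or TATC for the other strand) and the E-box (CANNTG, which reads the same on both strands). The windows lie at chr4:115056176-115056475 for Tal1, chr6:88198414-88198713 for Gata2 and chr8:84701207-84701506 for Lyl1.
Tal1: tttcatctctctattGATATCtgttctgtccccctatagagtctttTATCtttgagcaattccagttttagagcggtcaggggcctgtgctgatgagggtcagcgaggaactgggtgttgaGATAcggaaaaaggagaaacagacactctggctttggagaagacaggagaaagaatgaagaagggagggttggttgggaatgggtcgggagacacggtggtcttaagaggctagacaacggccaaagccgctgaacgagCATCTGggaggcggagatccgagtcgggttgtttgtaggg
Gata2: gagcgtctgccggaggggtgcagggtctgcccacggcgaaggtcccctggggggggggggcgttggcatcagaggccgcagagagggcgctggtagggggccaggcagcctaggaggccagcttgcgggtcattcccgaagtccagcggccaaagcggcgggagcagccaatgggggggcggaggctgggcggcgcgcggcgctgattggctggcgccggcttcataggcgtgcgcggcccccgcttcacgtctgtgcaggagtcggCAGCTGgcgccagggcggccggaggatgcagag
Lyl1: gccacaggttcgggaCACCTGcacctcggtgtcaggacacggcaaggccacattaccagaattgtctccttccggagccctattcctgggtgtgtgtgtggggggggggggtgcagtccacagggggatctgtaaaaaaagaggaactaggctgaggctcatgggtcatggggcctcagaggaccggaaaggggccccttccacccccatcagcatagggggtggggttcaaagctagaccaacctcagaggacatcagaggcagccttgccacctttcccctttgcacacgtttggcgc
The Tal1 window held 4 GATA cores, 2 of them overlapping each other, and 1 E-box. The Gata2 and Lyl1 windows held 0 GATA cores and 1 E-box each. The other RefSeq start windows of Tal1 and of Gata2 held 0 of either motif. Of all 32851 windows of this length, 57.9% held a GATA core and 72.3% an E-box, so these matches are common and only describe the letters in the windows. Of the 9 members, 8 had a window, 14 windows in all, of which 5 held a GATA core and 8 an E-box, and no bases of the 2 motifs overlapped. The motif TGTGGT (or ACCACA), the core bound by Runx1, was in 16.8% of all windows and in 1 of the 14, the upstream window of Runx1 itself, which held it 2 times. No window was given for Lmo2.

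Tal1 (NCBI gene 21349), on chromosome 4 in the RefSeq annotation, encodes Scl itself and is the locus of the reporter. Its scaled intensity was 391 and 333 on Hemangioblast arrays 1 and 2, against 597 and 696 on hCD4 arrays 1 and 2. Both Hemangioblast arrays were lower than both hCD4 arrays, and the arrays of each group differed by 1.18-fold and 1.17-fold. The log2 change was -0.81 (SE 0.186, 95% interval -1.24 to -0.38, adjusted p = 0.0513), so Tal1 missed the threshold. The sort used the reporter at this locus, so for whichever arrays hold sorted cells the level of Tal1 is tied to the gate, and its difference is given as a description.

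Lyl1 (NCBI gene 17095), on chromosome 8, encodes a close relative of Scl that in mice partly overlaps with it in blood stem cells. By the brighter probe set it was at 1410 and 1146 on the Hemangioblast arrays, against 561 and 841 on the hCD4 arrays. By the dimmer it was at 627 and 710, against 339 and 483. Every Hemangioblast array was above every hCD4 array by both probe sets, which were designed from the same sequence record and are not independent of each other. The log2 changes were 0.87 (SE 0.216, 95% interval 0.38 to 1.37, adjusted p = 0.0656) and 0.70 (SE 0.210, 95% interval 0.22 to 1.18, adjusted p = 0.124), and neither passed. Within the Hemangioblast group the order of the arrays was opposite between these probe sets.

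Tcf3 (NCBI gene 21423), on chromosome 10, encodes the E proteins E12 and E47, which dimerize with Scl and Lyl1. It was at 328 and 358 on the Hemangioblast arrays, against 322 and 477 on the hCD4 arrays. Only hCD4 replicate 2 stood apart, and the groups overlapped. The log2 change was -0.19 (SE 0.230, 95% interval -0.72 to 0.34, adjusted p = 0.795), an interval that runs as a fold from 0.609 to 1.27.

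**Figure D1:**
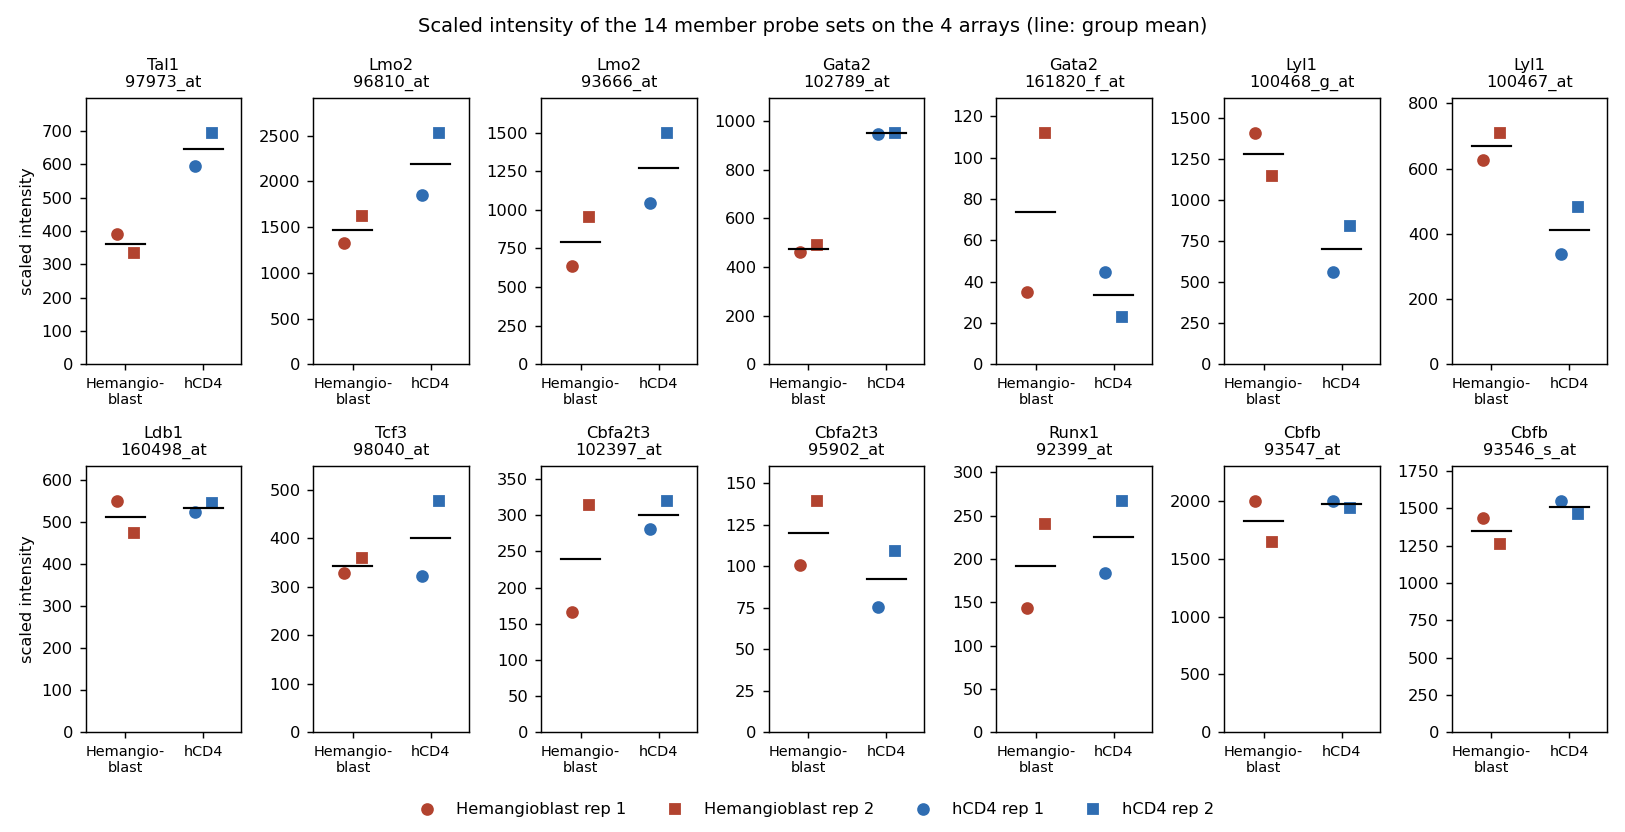
Scaled intensity (vertical axis, linear, from 0) of each of the 14 member probe sets on the 2 Hemangioblast arrays (red, left) and the 2 hCD4 arrays (blue, right), with circles for replicate 1, squares for replicate 2 and lines for group means. Tal1, Lmo2 and the brighter probe set of Gata2 lie lower on both Hemangioblast arrays, Lyl1 lies higher, and most other panels overlap.

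Lmo2 (NCBI gene 16909), on chromosome 2, encodes a LIM-only protein that has no DNA contact of its own and bridges Scl to GATA factors. By its brighter probe set Lmo2 was at 1328 and 1617 on the Hemangioblast arrays, against 1848 and 2534 on the hCD4 arrays. By its dimmer probe set it was at 634 and 953, against 1043 and 1501. The groups did not overlap by either probe set, and in both, replicate 2 was the higher array of each group. The log2 changes were -0.56 (SE 0.189, 95% interval -0.99 to -0.12, adjusted p = 0.172) and -0.67 (SE 0.240, 95% interval -1.23 to -0.12, adjusted p = 0.197), so Lmo2 did not pass by either.

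Ldb1 (NCBI gene 16825), on chromosome 19, encodes the LIM-domain binding protein that dimerizes and holds Lmo2 complexes together. It was at 551 and 475 on the Hemangioblast arrays, against 524 and 545 on the hCD4 arrays. The hCD4 arrays lay within the range of the Hemangioblast arrays. The log2 change was -0.06 (SE 0.174, 95% interval -0.46 to 0.34, adjusted p = 0.933).

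Gata2 (NCBI gene 14461), on chromosome 6, encodes the zinc-finger factor of blood progenitors that binds the GATA motif. By its brighter probe set it was at 461 and 489 on the Hemangioblast arrays, against 947 and 953 on the hCD4 arrays. The arrays of each group lay close together, and the Hemangioblast level was about 0.508 of the hCD4 level. The log2 change was -0.98 (SE 0.157, 95% interval -1.34 to -0.62, adjusted p = 0.0124), and the fall passed. The call was lost without hCD4 replicate 1 (log2 change -0.98, adjusted p = 0.0971) and without hCD4 replicate 2 (log2 change -0.97, adjusted p = 0.110), and also with unscaled arrays (adjusted p = 0.0588) or no intensity trend in the fit (adjusted p = 0.102). The other probe set was dim, with only 17.6% of all probe sets dimmer, at 34.97 and 112 on the Hemangioblast arrays, against 44.4 and 23.0 on the hCD4 arrays. Its groups overlapped and its Hemangioblast arrays differed by 3.20-fold (log2 change 0.74, SE 0.489, 95% interval -0.39 to 1.86, adjusted p = 0.550). The probe sets of Gata2 therefore disagree in sign, and the fall rests on the brighter one.

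Cbfa2t3 (NCBI gene 12398), on chromosome 8, encodes Eto2, a corepressor that joins the Scl complex. By the brighter probe set it was at 166 and 314 on the Hemangioblast arrays, against 281 and 320 on the hCD4 arrays, so Hemangioblast replicate 1 stood below the other 3 arrays. By the dimmer one it was at 101 and 140, against 75.4 and 109. The 2 probe sets differed in the sign of their change, -0.37 (SE 0.299, 95% interval -1.05 to 0.32, adjusted p = 0.653) and 0.33 (SE 0.323, 95% interval -0.41 to 1.08, adjusted p = 0.719), and both intervals include 0. No direction can be given for Cbfa2t3.

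Runx1 (NCBI gene 12394), on chromosome 16, encodes the DNA-binding subunit of the core-binding factor. It was at 143 and 240 on the Hemangioblast arrays, against 184 and 267 on the hCD4 arrays. The groups overlapped, and in each group replicate 2 was the higher. The log2 change was -0.24 (SE 0.310, 95% interval -0.95 to 0.47, adjusted p = 0.810), so a fall to 0.517 and a rise of 1.39-fold both lie within the interval. Cbfb (NCBI gene 12400), on chromosome 8, encodes the subunit that stabilizes Runx1 on DNA. By its brighter probe set Cbfb was at 2007 and 1647 on the Hemangioblast arrays, against 2006 and 1944 on the hCD4 arrays (log2 change -0.12, SE 0.153, 95% interval -0.47 to 0.23, adjusted p = 0.807). By the dimmer probe set it was at 1433 and 1260, against 1552 and 1463. The groups did not overlap by this probe set, but the change was small (-0.16, SE 0.147, 95% interval -0.50 to 0.18, adjusted p = 0.693). Of the 14 intervals, the narrowest were those of Cbfb.

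**Figure D2:**
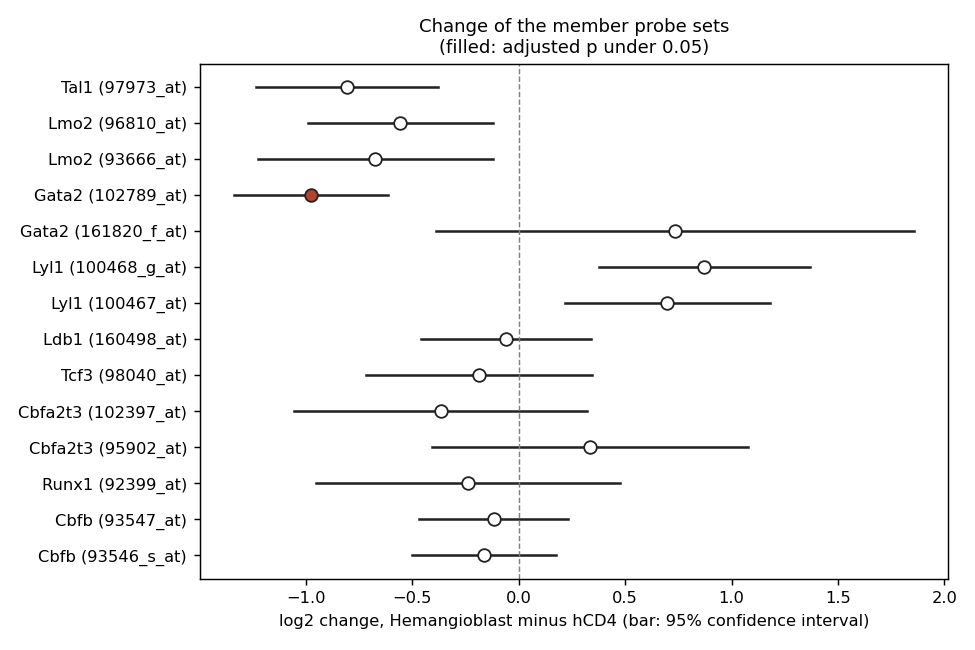
Log2 change, Hemangioblast minus hCD4 (horizontal axis), of each of the 14 member probe sets, with bars for the 95% confidence interval of limma and a filled point for an adjusted p under 0.05. The filled point is the brighter probe set of Gata2 at -0.98, and the intervals of Tal1, Lmo2 and Lyl1 also leave out 0 although their adjusted p-values do not pass.

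Ratios of 2 probe sets on the same array depend little on the scaling between arrays, and their shift between groups shows whether 2 genes changed unequally. Lyl1 (brighter probe set) over Tal1 had a log2 ratio of 1.81 and 1.74 on the Hemangioblast arrays, against -0.09 and 0.27 on the hCD4 arrays. The shift was 1.68 on the log2 scale, 3.21-fold, and the arrays of a group differed by 0.07 for Hemangioblast and by 0.35 for hCD4. By the dimmer probe set the shift was 1.51. The 2 closely related factors thus changed unequally by more than the arrays of a group differed. No test of the ratios was run, and they are given as values.

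Ratios over Tal1 were computed for all 13 other member probe sets and share Tal1 as their base. The groups did not overlap for 8 of 13. Tal1 itself was lower on both Hemangioblast arrays, so a probe set that changed little also shifts up against it. The share of all probe sets with groups apart over Tal1 was not computed, so this count only describes the members. Among the brightest probe sets, Ldb1 shifted up against Tal1 by 0.75, Cbfb by 0.69 and Tcf3 by 0.62, each with the groups apart. Their own log2 changes were -0.06, -0.12 and -0.19. By its dim probe set, Gata2 shifted up against Tal1 by 1.54 with the groups apart, less than the 1.55 between the Hemangioblast arrays. By the brighter one, Gata2 over Tal1 was at 0.23 and 0.53 on the Hemangioblast arrays, against 0.65 and 0.44 on the hCD4 arrays. This shift of -0.17 had overlapping groups. Lmo2 over Tal1 shifted by 0.25, also with overlap. Lmo2 over Gata2, a ratio chosen after the values were seen, was at 1.496 and 1.694 on the Hemangioblast arrays, against 0.953 and 1.397 on the hCD4 arrays. The groups of this ratio did not overlap, and its shift of 0.42 was smaller than the 0.44 between the hCD4 arrays. Runx1 over Cbfb shifted by -0.12, less than the 0.97 between the Hemangioblast arrays and the 0.55 between the hCD4 arrays.

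Gata1, the GATA factor that takes the place of Gata2 at many sites in maturing red cells, was at 584 and 746 on the Hemangioblast arrays, against 402 and 518 on the hCD4 arrays (log2 change 0.52, SE 0.204, adjusted p = 0.249). Another probe set of Gata1 gave 0.73 (adjusted p = 0.141). Gata1 over Gata2 had a log2 ratio of 0.33 and 0.59 on the Hemangioblast arrays, against -1.21 and -0.86 on the hCD4 arrays. That is a 2.82-fold shift, where the arrays of a group differed by 0.26 for Hemangioblast and by 0.35 for hCD4. By these probe sets the balance of the 2 GATA genes thus moved further than either spread, although Gata1 alone did not pass. The ratio uses the brighter probe set of Gata2. The dim one changed by 0.74, and the ratio over it was not computed.

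**Figure D3:**
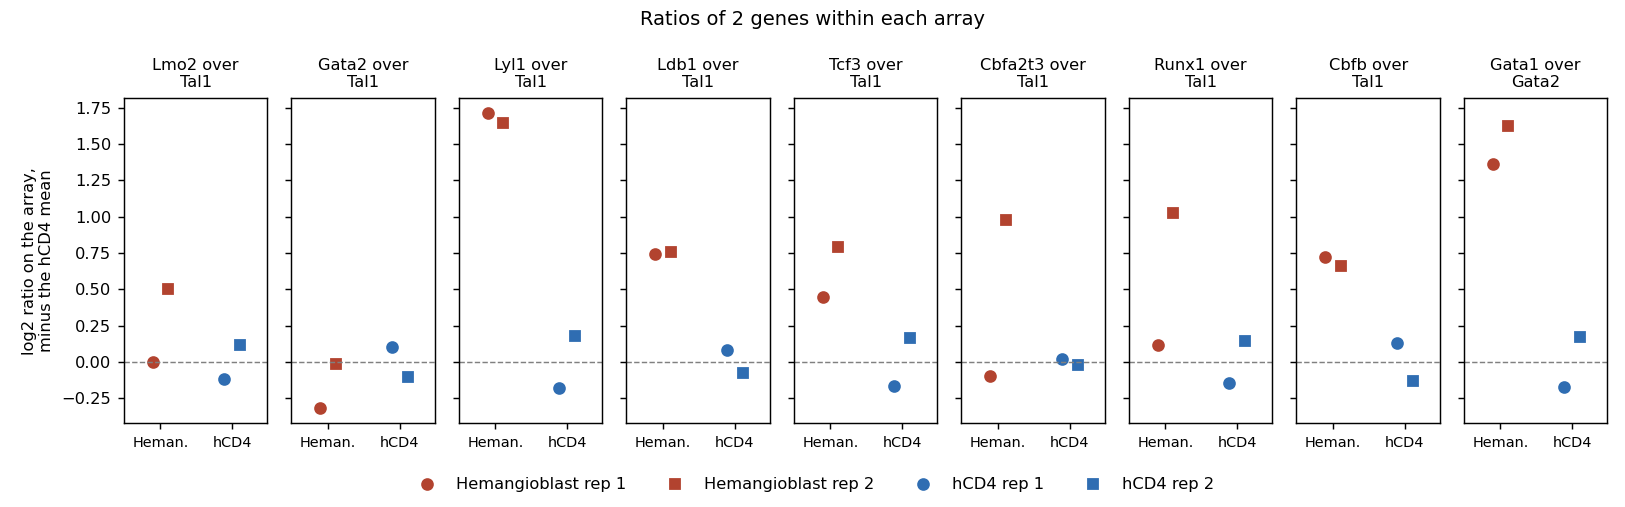
Log2 ratio of 2 genes on each array, after subtraction of the hCD4 mean (vertical axis), for the brightest probe set of each member over Tal1 and for Gata1 over Gata2, on the 2 Hemangioblast arrays (red, left) and the 2 hCD4 arrays (blue, right). Lyl1 over Tal1 and Gata1 over Gata2 show the widest separation, with mean shifts of 3.21-fold and 2.82-fold, while Lmo2, Gata2, Cbfa2t3 and Runx1 over Tal1 overlap between groups.

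The arrays were also used to find the probe sets whose pattern over the 4 arrays was most like that of Tal1, as the root mean square difference of log2 values after each was centred on its own mean. Of 5512 probe sets with 1 gene symbol and a mean scaled intensity of at least 200, the nearest were those of Polr2e (0.03), Dcaf1 (0.03), Slc29a1 (0.04), Csnk2a2 (0.04) and Nop56 (0.05). These encode an RNA polymerase subunit, a ubiquitin ligase adaptor, a nucleoside transporter, a casein kinase subunit and a nucleolar protein. Among the members, each by its brightest probe set, Gata2 was the nearest to Tal1 (0.16, rank 169). Lmo2 followed (0.23, rank 523), and Lyl1 was the farthest (0.85, rank 5200). For Runx1 the nearest were Rps4x (0.04), Zbtb22 (0.05), Rab7 (0.06), Cbln1 (0.06) and Ctnnbip1 (0.06), and the nearest member was Cbfa2t3 (0.14, rank 118). With 4 arrays many genes share such a pattern, and the distances are a description.

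The related gene lists from here on were chosen with earlier results of these data known. Their shares beside those of all genes are therefore descriptions only. Relatives of the members from the same gene families were described next, with 1 probe set per gene. Of 21 measured, 2 rose and 3 fell in Hemangioblast samples (23.8%, against 5.36% of all genes, 3.39% higher and 1.96% lower), and the median log2 change was -0.08, against 0.02 over all genes. Id2 rose and Id1 and Id3 fell; Id proteins bind E proteins such as the products of Tcf3 and keep them off DNA. Id2 was at 1794 and 1402 on the Hemangioblast arrays, against 740 and 440 on the hCD4 arrays (log2 change 1.45, SE 0.248, adjusted p = 0.0156). Id1 was at 752 and 589, against 1386 and 1290 (log2 change -0.99, SE 0.171, adjusted p = 0.0164), and Id3 at 718 and 595, against 1280 and 1389 (log2 change -1.01, SE 0.163, adjusted p = 0.0124). All 3 had groups that did not overlap, and their calls depended on the hCD4 arrays. Without hCD4 replicate 2 the adjusted p was 0.0909 for Id2, 0.109 for Id1 and 0.122 for Id3, and without hCD4 replicate 1 it was 0.131 for Id1 and 0.0799 for Id3. With unscaled arrays, or with no intensity trend, 0 of the 21 relatives passed.

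Ssbp2, whose product binds Ldb1 and protects it from degradation, rose. It was at 559 and 442 on the Hemangioblast arrays, against 244 and 135 on the hCD4 arrays (log2 change 1.37, SE 0.289, adjusted p = 0.0367). Its call was lost without Hemangioblast replicate 1 (adjusted p = 0.128), Hemangioblast replicate 2 (0.0679) or hCD4 replicate 2 (0.178), and also with median scaling (0.0603), no scaling (0.139) and quantile normalization (0.0529). Gata6, a GATA factor of endoderm and heart named after its values were seen, fell to 256 and 242 on the Hemangioblast arrays, against 495 and 454 on the hCD4 arrays (log2 change -0.89, SE 0.191, adjusted p = 0.0398). Leaving out any 1 array took its adjusted p to between 0.0731 and 0.213, and its 2 dim probe sets did not pass (adjusted p = 0.628 and 0.644). Other E proteins and relatives did not pass, among them Tcf4 and Tcf12 (log2 change 0.09 and -0.11).

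Of 21 measured cofactors that bind members of the complex, such as histone deacetylases and the NuRD subunits, 1 rose and 0 fell (4.76%, against 5.36% of all genes), and the median log2 change was -0.09. The member that rose was Spi1, which encodes the myeloid factor PU.1 and binds GATA factors and Runx1. Spi1 was at 914 and 816 on the Hemangioblast arrays, against 163 and 189 on the hCD4 arrays (log2 change 2.20, SE 0.190, adjusted p = 0.000571). Zfpm1, which encodes the GATA cofactor Fog1, did not pass and had overlapping groups (log2 change -0.23, adjusted p = 0.721).

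Genes that Scl, Gata factors and Lmo2 bind or activate in blood cells rose in part. Of 21 measured, 10 rose and 0 fell (47.6%, against 5.36% of all genes), and the median log2 change was 0.89. The list was chosen with earlier results known, so this share only describes it. The 4 with the smallest adjusted p were globin genes. Hba-a1 changed by 2.54, Hbb-bh1 by 2.51, Hbb-b2 by 3.63 and Hbb-y by 1.47, with adjusted p up to 0.00108. The list holds all 9 measured erythroid markers, of which 7 rose, and of the 12 other genes 3 rose, which were the globin gene Hbb-b2, Nfe2 and Fech, the last a heme synthesis gene named after its values were seen. The count of 10 was 5 without hCD4 replicate 1 and 6 without hCD4 replicate 2.

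Of 17 measured genes that Runx1 regulates in blood cells, 4 rose and 0 fell (23.5%, against 5.36% of all genes), and the median log2 change was 0.37. Besides Spi1 they were Csf1r, the receptor of the macrophage growth factor (805 and 1042 on the Hemangioblast arrays, against 90.8 and 114 on the hCD4 arrays), the lysozyme gene Lyz2 (249 and 451, against 19.8 and 38.2) and Nfe2, a factor of platelets and red cells (828 and 653, against 226 and 339). Csf1r was 7.92-fold higher (adjusted p = 0.000333), Lyz2 was higher (adjusted p = 0.0034) and Nfe2 was 2.56-fold higher (adjusted p = 0.0166). Dim second probe sets of Csf1r and Lyz2 did not pass (log2 change 0.26 and -0.36, adjusted p = 0.865 and 0.803). With no intensity trend in the fit, Nfe2 did not pass (adjusted p = 0.105). Lyz2 was too dim on the hCD4 arrays for a firm fold, and its log2 change was 2.12 with an added constant of 64 and 3.56 with a constant of 1. The call of Nfe2 was lost without Hemangioblast replicate 1 (log2 change 1.19, adjusted p = 0.0596) and without hCD4 replicate 1 (log2 change 1.08). Of these 4 genes, 3 are also macrophage markers. As above, the list was chosen with earlier results known, so its share only describes it.

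**Figure D4:**
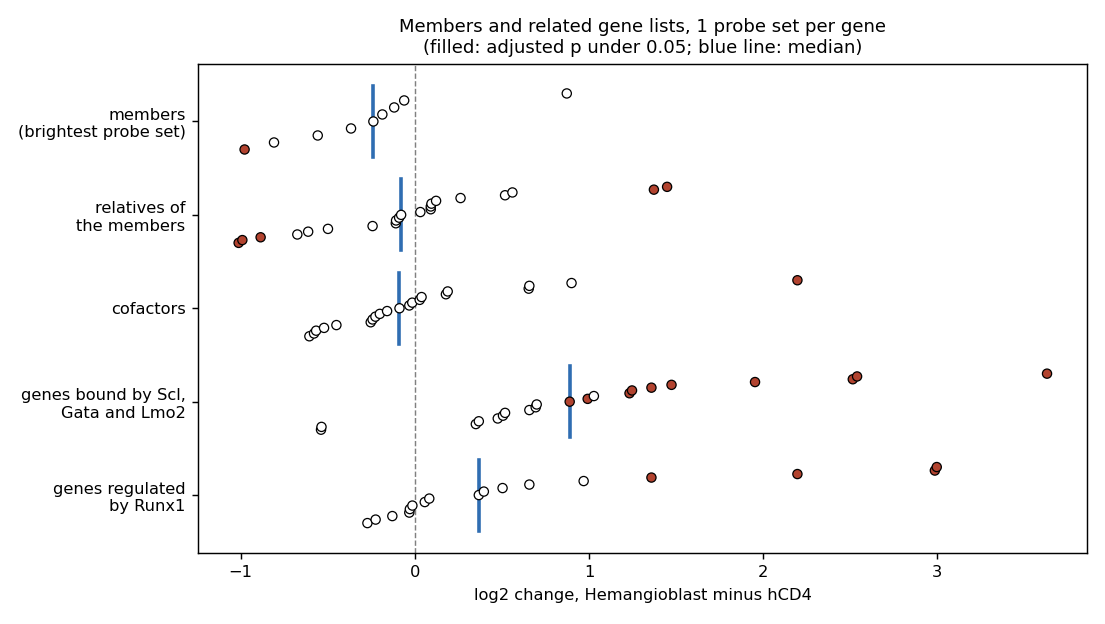
Log2 change, Hemangioblast minus hCD4 (horizontal axis), of each gene of the members and of 4 related gene lists (rows), with filled points for an adjusted p under 0.05 and blue lines for the median of each row. Genes bound by Scl, Gata and Lmo2 have a median of 0.89, while the members themselves lie between -0.98 and 0.87.

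Markers of blood cell types moved with these differences, and their part in the changes of the members was not tested. The summed scaled intensity of 11 measured macrophage markers was 6365 and 7048 on the Hemangioblast arrays, against 657 and 670 on the hCD4 arrays, and 8 of 11 rose. For 9 erythroid markers the sums were 38141 and 40860, against 13359 and 14200, and 7 of 9 rose. For 5 megakaryocyte markers they were 1260 and 1388, against 313 and 391, and 3 of 5 rose. Early mesoderm markers summed to 3018 and 2179, against 4386 and 4535, with 3 of 7 lower (Kdr, Etv2 and Eomes). Pluripotent markers summed to 5222 and 5374, against 8568 and 6787, with 3 of 12 lower (Pou5f1, Dppa5a and Klf5). Several of them differed between the hCD4 arrays, such as Pou5f1 (1526 and 585), Dppa5a (1397 and 745) and Tdgf1 (197 and 62.1). Klf5 differed little (637 and 599), and Nanog, Klf2, Esrrb and Fgf4 were the higher on hCD4 replicate 2. Esrrb held much of the pluripotent sums, at 3343 and 3476, against 3165 and 3579, and did not pass (log2 change 0.02). Of the mast cell markers 0 of 6 passed (sums of 771 and 884, against 588 and 815), and of the endothelial markers 1 of 7, Tie1, rose (sums of 4298 and 3671, against 3141 and 3621). Of the other endothelial markers, Cdh5, Flt1 and Tek were lower on both Hemangioblast arrays without passing (log2 change -0.53, -0.57 and -0.39), and Pecam1 was higher without passing (0.77). Hand1, in the early mesoderm list, was at 1890 and 853 on the Hemangioblast arrays, against 443 and 579 on the hCD4 arrays (log2 change 1.30, adjusted p = 0.0721), and its other probe set rose (log2 change 1.29, adjusted p = 0.0224). Kdr, an early mesoderm marker that was lower (648 and 570, against 1625 and 2003), encodes Flk-1, which the sort also used. On the hCD4 arrays the macrophage markers were not all near 0. Spi1 (163 and 189), Cd68 (182 and 158) and Csf1r (90.8 and 114) were the brightest there, but none was clearly above the array median. Tyrobp (58.1 and 45.7), Ctss (27.0 and 20.8), Adgre1 (13.1 and 4.14) and Ptprc (28.5 and 2.67) were dimmer. A dim second probe set of Ptprc did not pass (log2 change -0.52, adjusted p = 0.644). In such bulk samples, fewer cells of a type and less RNA per cell cannot be told apart.

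The median intensity per array was 165 to 197 before scaling. The 3' to 5' ratio of the Gapdh control, which rises as RNA degrades, was 1.33 and 1.03 on the Hemangioblast arrays, against 1.13 and 1.03 on the hCD4 arrays. Replicate 1, which had the higher ratio in each group, was the lower array of both groups for 8 of 14 member probe sets: both of Lmo2, both of Cbfa2t3, the brighter of Gata2, the dimmer of Lyl1, and those of Tcf3 and Runx1. It was the higher array of both groups for both probe sets of Cbfb, and for the other 4 the order differed between groups. The share of all probe sets with such an order was not computed, and the part of RNA quality in it was not tested.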

How the data were processed

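RNA was isolated with TRIzol and not amplified, per the labels' protocols. For each array the authors deposited a linear intensity per probe set. How these values were background-corrected or scaled, and with which software, is not given in the sources used here. Of 12488 probe sets, 66 controls were removed. Arrays were scaled to their average trimmed mean (2% trimmed at each end), 16 was added before log2, and groups were compared as Hemangioblast minus hCD4 with limma 3.58.1 in R 4.3.3 (lmFit, eBayes with trend), two-sided, with 2 residual and 6.18 prior degrees of freedom. The number of arrays limits the precision: the median SE was 0.27.

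Names come from the platform annotation (10833 probe sets with 1 symbol, 396 with several, 1193 with none), and no member shares a probe set with another symbol. All 9 members matched a RefSeq gene by identifier. A listed gene is represented by its probe set with the highest mean. A gene counted as named if it was a member, Gata1 or Spi1, among the 4 smallest adjusted p of those past the threshold in a list, or among the 5 patterns most like Tal1 or Runx1. The members and lists were chosen with earlier results of these data known. Titles share replicate numbers, but same-numbered arrays did not deviate together (correlation -0.01 across probe sets), so they were not treated as pairs. The fit was run on simulated data as a check of the code. Their spread was normal and set by intensity alone, so this check cannot vouch for the calls on these arrays. Plots were made in Python 3.11.15 (matplotlib 3.10.9).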

Additional observations from a re-analysis of the deposited data

How the results depend on the processing

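The alternatives tried were adding 1 or 64 in place of 16, scaling by the median, no scaling, quantile normalization, no intensity trend, leaving out probe sets with a mean under 100, leaving out each array, and a replicate block. Of 167 member values under the 12 alternatives, 151 kept direction and side of the threshold, and 9 of 14 probe sets kept 1 direction throughout. The dim Gata2 probe set was not tested where dim ones were left out. The cause of the differences was not tested.

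Tal1 passed with a constant of 1 (-0.83, adjusted p = 0.0375) and without dim probe sets (-0.81, adjusted p = 0.0222). So did Lyl1 by its brighter probe set (0.89, adjusted p = 0.0454, and 0.87, adjusted p = 0.0208). More of all probe sets passed in these settings too, against 556 of 12422 in the main fit. With a constant of 1 it was 660 of 12422 (411 higher and 249 lower). Without dim probe sets it was 853 of only 8366 tested (497 higher and 356 lower), with 13 member probe sets among those tested. Gata2 lost its call without scaling (-0.96, adjusted p = 0.0588), without a trend (-0.98, adjusted p = 0.102) and without either hCD4 array (-0.98 and -0.97). The replicate block is a pairing that the correlation of -0.01 across all probe sets does not bear out. With this block, Tal1 (-0.81, adjusted p = 0.0416), Lmo2 by its dimmer probe set (-0.67, adjusted p = 0.0333) and Gata2 passed. Of all 12422 probe sets, 710 passed with the block (432 higher and 278 lower). With 1 array left out, values ran from -1.02 to -0.94 for Gata2, and signs turned for Ldb1 (-0.17 to 0.043), Tcf3 (-0.46 to 0.087), Cbfa2t3 by its brighter probe set (-0.79 to 0.060), Runx1 (-0.58 to 0.10, and 0.01 without hCD4 replicate 2) and Cbfb by its brighter probe set (-0.26 to 0.023).

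The 1 lower and 0 higher member probe sets became 2 and 1 with a constant of 1 or without dim probe sets, 0 lower without scaling or without a trend, 3 lower with the block, and 0 to 1 lower with 1 array left out. Over all probe sets, 362 higher and 194 lower became 222 and 50 without scaling (81.6% higher, against 65.1%), 188 and 32 without a trend, 356 lower without dim probe sets, and 170 to 283 higher and 42 to 234 lower with 1 array left out. Relatives that rose (2) numbered 1 with median scaling or quantile normalization, 0 without scaling or a trend, and 0 to 2 with 1 array left out, and those that fell (3) numbered 0 without scaling or a trend and 0 to 2 with 1 array left out. Cofactors that rose (1) numbered 4 without dim probe sets and 1 to 2 with 1 array left out. Genes bound by Scl, Gata and Lmo2 that rose (10) numbered 5 without a trend and 5 to 8 with 1 array left out.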
